A study of Mus musculus with 6 samples.

Results

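The 10 genes described here encode transcription factors of the activator protein 1 (AP-1) group: Jun, Junb, Jund, Fos, Fosb, Fosl1, Fosl2, Batf, Atf3 and Maff. They were chosen by name out of 22028 protein-coding genes of the GENCODE mouse annotation. The measurement was ChIP-seq (chromatin immunoprecipitation followed by sequencing) with an antibody against the HA tag, in mouse pre/pro-B cell lines that were transformed with the p185 form of the BCR::ABL1 oncogene and lacked endogenous CDK6 (Cdk6-/-). In 2 libraries the cells carried HA-tagged wildtype CDK6 (CDK6-WT), and in the other 2 they carried HA-tagged CDK6-K43M, whose kinase is inactive. The labels number the libraries of each variant 1 and 2 and do not say whether a number stands for a separate line, culture or day, so that p-values measure only the spread between these libraries, which may be technical. All groups shared the oncogene, the Cdk6 deletion and expression of the tagged protein from a retroviral plasmid, so the CDK6 measured was not under its own promoter. The question posed by the design was whether the binding of CDK6 to chromatin at these genes depends on its kinase activity.

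AP-1 factors bind DNA as dimers joined through a leucine zipper. JUN proteins pair with themselves, with FOS proteins or with related ATF and BATF proteins. The JUN-FOS dimer recognises the palindrome TGA(C/G)TCA, which was searched here in the wider form TGANTCA. Several of these genes, Fos above all, are immediate-early genes: MAP kinase signalling switches them on within minutes through serum response elements, which are bound by SRF together with ELK proteins. BCR::ABL1 feeds the same MAP kinase pathway. CDK6 itself has no DNA-binding domain, and a CDK6 peak is a place where it was crosslinked to chromatin through other proteins.

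The values came from 1 peak list per library. The lists of CDK6-WT replicates 1 and 2 held 35189 and 34729 peaks, and those of CDK6-K43M replicates 1 and 2 held 39797 and 37304. Reads were recovered from the peak statistics, and the median peak had 15 to 23 reads at its summit over a local background of 1.79 to 2.46 reads. The libraries differed more by number than by variant. Of all protein-coding genes, 34.9% had a stronger promoter peak in both replicate 1 lists than in both replicate 2 lists, and 5.17% a weaker one, whereas 2.95% were stronger in both CDK6-K43M lists than in both CDK6-WT lists and 1.49% weaker. Each comparison of the variants below is therefore also given within each number. A peak that is missing from a list did not pass the threshold of the peak caller there, which is not a count of 0 reads. In a bulk library, weak binding in every cell and strong binding in a few cells cannot be told apart.

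The sequences printed here come from windows at annotated starts or peak summits. Some of their elements lie in a peak region but away from its summit. All are from the mm10 genome (GRCm38) and are written 5′ to 3′ on the strand of the gene. Promoter windows run from 350 to 51 bases ahead of an annotated start, and positions give the first base of a match counted from that start. The first set holds a serum response element, shown in capitals. In Fos (chr12:85473540-85473839, element at -309) and Fosb (chr7:19310102-19310401, element at -266) it lies before the first start. In Junb (chr8:84976593-84976892, element at -91) it lies just past the 3′ end of the main transcript and before the start of a shorter annotated one. A serum response element was also found in a 201-base window around the summit of a peak region 12219 bp downstream of the Fos start (chr12:85486009-85486209), where a second run of capitals marks an SP1 match.
Fos promoter: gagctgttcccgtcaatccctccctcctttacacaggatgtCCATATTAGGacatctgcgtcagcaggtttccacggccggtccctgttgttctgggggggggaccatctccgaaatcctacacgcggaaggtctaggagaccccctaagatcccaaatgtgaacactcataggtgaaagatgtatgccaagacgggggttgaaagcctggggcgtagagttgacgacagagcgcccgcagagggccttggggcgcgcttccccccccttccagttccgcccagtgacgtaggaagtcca
Fos downstream region: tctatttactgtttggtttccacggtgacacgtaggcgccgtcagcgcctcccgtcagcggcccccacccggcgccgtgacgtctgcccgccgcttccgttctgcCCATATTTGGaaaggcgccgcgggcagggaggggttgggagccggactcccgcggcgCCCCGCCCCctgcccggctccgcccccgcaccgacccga
Fosb promoter: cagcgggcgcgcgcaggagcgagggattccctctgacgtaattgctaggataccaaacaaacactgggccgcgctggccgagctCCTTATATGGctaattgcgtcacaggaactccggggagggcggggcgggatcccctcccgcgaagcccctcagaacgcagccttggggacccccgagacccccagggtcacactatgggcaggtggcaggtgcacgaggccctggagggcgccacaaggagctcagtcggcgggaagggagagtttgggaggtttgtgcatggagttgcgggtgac
Junb downstream window: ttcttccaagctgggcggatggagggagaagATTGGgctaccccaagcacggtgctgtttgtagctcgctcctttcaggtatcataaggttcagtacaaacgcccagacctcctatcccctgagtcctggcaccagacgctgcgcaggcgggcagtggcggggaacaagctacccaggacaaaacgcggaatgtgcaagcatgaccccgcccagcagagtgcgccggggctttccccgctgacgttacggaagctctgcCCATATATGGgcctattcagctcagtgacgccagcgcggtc
In the Junb window the first run of capitals is an NFY box (CCAAT, here read on the other strand). Of 21938 protein-coding promoters, 1.65% held a serum response element in the same 300 bases, 38.4% an NFY box, 9.02% an SP1 match (GGGGCGGGG), 1.14% a cAMP response element (TGACGTCA) and 7.35% an AP-1 site (TGANTCA), all searched on both strands. Those shares took only the window before the first annotated start of each gene, whereas every start of a member was searched. Members with several starts thus had more chances of a match. The second set shows the promoters of Jun (chr4:95052273-95052572), with an NFY box at -65, and of Jund (chr8:70698599-70698898), with a cAMP response element at -214 and an NFY box at -85.
Jun promoter: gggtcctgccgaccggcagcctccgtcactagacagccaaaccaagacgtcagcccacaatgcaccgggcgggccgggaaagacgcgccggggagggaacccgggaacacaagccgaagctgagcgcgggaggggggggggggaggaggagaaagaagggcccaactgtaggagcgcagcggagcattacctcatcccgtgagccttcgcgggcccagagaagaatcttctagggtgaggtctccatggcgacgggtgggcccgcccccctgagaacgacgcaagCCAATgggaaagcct
Jund promoter: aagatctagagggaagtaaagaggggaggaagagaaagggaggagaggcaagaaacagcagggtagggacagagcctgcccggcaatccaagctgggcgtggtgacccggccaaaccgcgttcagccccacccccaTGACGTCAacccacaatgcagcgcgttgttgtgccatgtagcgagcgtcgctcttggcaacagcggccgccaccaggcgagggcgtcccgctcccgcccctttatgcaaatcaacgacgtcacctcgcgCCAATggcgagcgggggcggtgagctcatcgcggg
The main Junb start had NFY boxes at -323 and -66. None of the windows of Jun, Junb, Jund, Fos and Fosb held an AP-1 site as spelled here, whereas Fosl2 had one in the same window of each of its other two starts, of which the one nearer to the first start lay within its merged promoter region.

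At the promoters, taken as 2000 bp before to 200 bp after any annotated start, CDK6 peaks were found at nearly all of the 10 genes in the replicate 1 lists and at fewer in the replicate 2 lists. A promoter peak was present at 9 members in CDK6-WT replicate 1, against 47.0% of all protein-coding genes, and at 6 in CDK6-WT replicate 2, against 40.1%. It was present at 10 members in CDK6-K43M replicate 1 (48.5% of all genes) and at 8 in CDK6-K43M replicate 2 (39.4%). The strength of a peak is given below as its percentile, the rank of its −log10 q within its own list, so that 100 is the strongest peak and a gene without a promoter peak is set to 0. The median percentile of the 10 members was 83.9 and 81.7 in CDK6-WT and CDK6-K43M replicate 1, and 25.7 and 42.0 in CDK6-WT and CDK6-K43M replicate 2. With a region counted as bound by both variants when at least 3 of the 4 lists hold a peak, 8 of the 10 members were bound by both, compared with 41.3% of protein-coding genes, and 6 had a promoter region in all 4 lists, compared with 33.2%. The exceptions were Fos and Fosl1. At a minimum −log10 q of 10 only Jun and Fosl2, 2 of the 10, were bound by both, against 17.1% of protein-coding genes under that minimum, and in the top 10000 peaks of each list the same 2 were, against 12.7%.

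**Figure D1:**
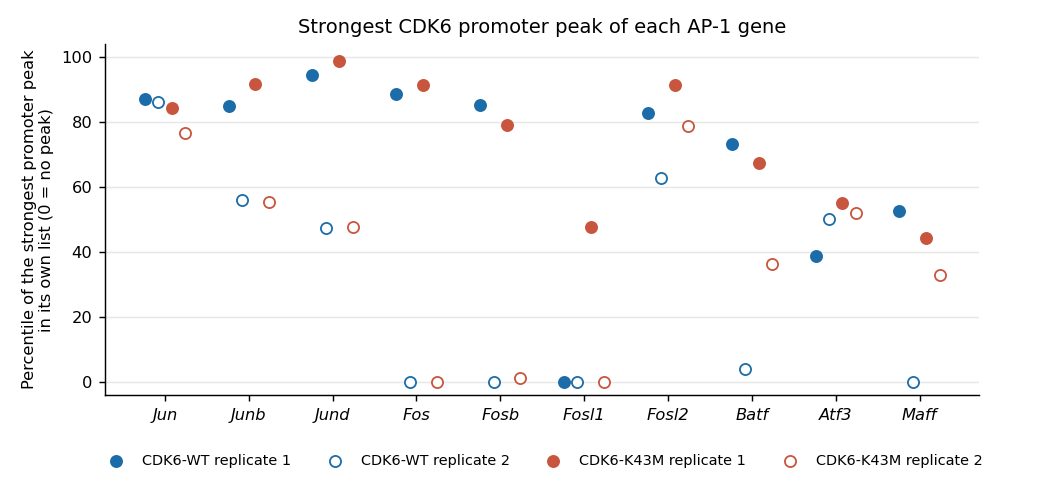
Percentile of the strongest promoter peak of each AP-1 gene (y axis, 0 to 100, 0 where the list has no promoter peak) in each of the 4 libraries; colour gives the variant, filled points replicate 1 and open points replicate 2. Jun stays between 76.5 and 87.2 in all lists, while the open points of Fos lie at 0 and its filled points at 88.7 and 91.3.

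Averaged over the 4 lists, the order was Jun (83.6), Fosl2 (78.9), Jund (72.1), Junb (72.0), Atf3 (49.0), Batf (45.2), Fos (45.0), Fosb (41.4), Maff (32.5) and Fosl1 (11.9). Each gene overlapped its neighbour in this order in the range of its 4 values, except that every Junb value lay above every Atf3 value, by a margin of 55.4 against 55.2.

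Among the JUN genes, Jun had the steadiest peak. It encodes c-JUN, the founding AP-1 subunit, and is a gene of 1 exon (chr4:95049034-95052222, minus strand). Its strongest promoter peak stood at percentile 87.2 and 86.1 in CDK6-WT replicates 1 and 2 and at 84.3 and 76.5 in CDK6-K43M replicates 1 and 2. These peaks had 32, 33, 36 and 20 reads at the summit and fold enrichments over local background of 12.8, 7.84, 11.9 and 7.53, in the same order. The peaks did not share a summit: counted from the start it lay at 43 bp in CDK6-WT replicate 1, at -1168 bp in CDK6-WT replicate 2, and at -1085 and -1701 bp in CDK6-K43M replicates 1 and 2. Peaks covered 31.9%, 50.7%, 52.9% and 41.3% of the gene body. The 3 protein-coding genes with the most similar set of 4 percentiles were Cnot6l (Euclidean distance 1.84 percentile points), Cep57l1 (2.58) and Snx20 (4.17).

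Junb, which encodes a JUN protein that often opposes c-JUN, had its strongest promoter peak at percentiles 85.0 and 91.6 in CDK6-WT and CDK6-K43M replicate 1, with 34 and 48 reads, and at 56.1 and 55.4 in the replicate 2 lists of CDK6-WT and CDK6-K43M, with 17 and 16 reads. The 95% Poisson interval of the CDK6-K43M replicate 1 count ran from 35.4 to 63.6 and that of replicate 2 from 9.15 to 26.0, which covers counting error only. The place of the strongest peak also differed. Counted from the nearest start it lay at -136 and -128 bp in the replicate 1 lists and at -1040 and -1100 bp in the replicate 2 lists. The region over the main start, chr8:84977205-84979044, was in all 4 lists, but at percentile 18.5 in CDK6-WT replicate 2 and 10.2 in CDK6-K43M replicate 2. The region with the serum response element past the 3′ end (chr8:84976172-84976848) was in both replicate 1 lists only, at percentiles 72.6 and 83.8.

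Jund, the JUN gene that most resting cells express, had the single strongest promoter peak of any member. It stood at percentile 94.4 with 45 reads in CDK6-WT replicate 1 and at 98.8 with 65 reads in CDK6-K43M replicate 1, and at 47.3 with 17 reads and 47.8 with 18 reads in the replicate 2 lists of CDK6-WT and CDK6-K43M. The groups by number did not overlap, whereas the values of the variants interleaved. Merged over the lists, the region ran from chr8:70698223 to 70700270 and included the printed cAMP response element and NFY box. Peaks covered 69.5% of this short gene in CDK6-WT replicate 1, 38.1% in CDK6-WT replicate 2, 80.9% in CDK6-K43M replicate 1 and 52.0% in CDK6-K43M replicate 2.

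The products of the FOS genes need a partner such as JUN to bind DNA. Fos and Fosb had the largest differences of mean percentile between replicates 1 and 2 among the members, 90.0 and 81.5 points, whereas Fosl1 and Fosl2 differed by 23.9 and 16.3. Fos (chr12:85473890-85477273, plus strand) had a promoter peak at percentile 88.7 with 34 reads in CDK6-WT replicate 1 and at 91.3 with 44 reads in CDK6-K43M replicate 1, and none in either replicate 2 list. The summits lay 10 and 36 bp after the start, and the merged region (chr12:85473352-85474167) covered the serum response element. Promoter peaks in the replicate 1 lists alone were found at 5.67% of all protein-coding genes. All 3 regions in the Fos promoter windows were of this kind. The downstream region with the other serum response element was at percentiles 57.4 and 46.5 with 25 and 29 reads in CDK6-WT and CDK6-K43M replicate 1, and was also missing from both replicate 2 lists.

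Fosb encodes a close relative of c-FOS. Its promoter peak stood at 85.3 with 31 reads in CDK6-WT replicate 1 and at 79.0 with 33 reads in CDK6-K43M replicate 1. In CDK6-K43M replicate 2 it was among the weakest peaks of the list (percentile 1.26, 11 reads), and in CDK6-WT replicate 2 it was missing. The regions over the serum response elements at Fos, at Fosb and past the end of Junb were thus in both replicate 1 lists, and the only replicate 2 peak in any of these regions was that weak one, with its summit 13 bp after a Fosb start. Within 100 bp of the region's summit, the element was found at Junb but not at the Fos and Fosb promoters. Fosl2 (FRA-2) was bound in all lists, at percentiles 82.8, 62.7, 91.3 and 78.9 in CDK6-WT replicates 1 and 2 and CDK6-K43M replicates 1 and 2, and its summits lay between -707 and -661 bp from a start. Fosl1 (FRA-1) had a promoter peak only in CDK6-K43M replicate 1, at percentile 47.7 with 21 reads. The strongest region of its locus, chr19:5460427-5460824, lay in the promoter of the neighbouring gene Fibp, at percentiles 98.6, 70.2, 96.4 and 78.9.

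Batf, Atf3 and Maff encode dimer partners: BATF acts with IRF4 in lymphocytes, ATF3 is induced by stress, and MAFF is a small MAF protein without a transactivation domain. Batf stood at percentile 73.2 and 67.3 in the CDK6-WT and CDK6-K43M replicate 1 lists, but at 4.13 in CDK6-WT replicate 2 and 36.2 in CDK6-K43M replicate 2. Atf3 was the only member whose percentile was not higher on average in replicate 1, at 38.7 and 50.1 in CDK6-WT replicates 1 and 2 and 55.2 and 52.0 in CDK6-K43M replicates 1 and 2. Its promoter peaks lay at 2 of its 3 annotated starts, inside an intron of the longest transcript. Maff was at 52.6 and 44.3 in the replicate 1 lists of CDK6-WT and CDK6-K43M, at 33.0 in CDK6-K43M replicate 2 and without a peak in CDK6-WT replicate 2.

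**Figure D2:**
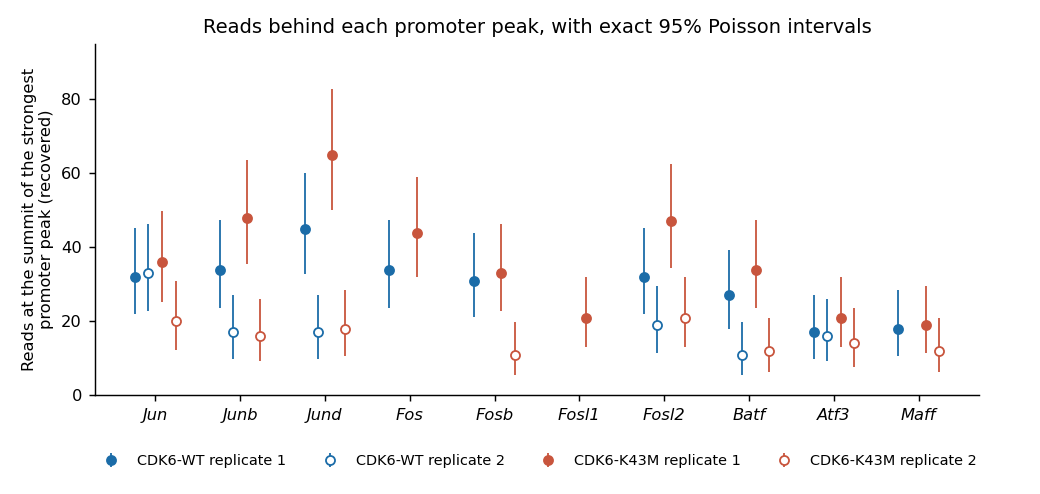
Reads recovered at the summit of the strongest promoter peak of each AP-1 gene (y axis, linear, from 0) in each library, with exact 95% Poisson intervals that cover counting error only; genes without a promoter peak in a list have no point. Jund has the most reads, 45 and 65 in replicate 1, and 17 and 18 in replicate 2, and the replicate 2 points of Junb and Jund lie below those of replicate 1.

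In all, 7 of the 10 members had a higher promoter percentile in both replicate 1 lists than in both replicate 2 lists, against 34.9% of protein-coding genes, and 0 had the opposite order, against 5.17%. The 7 were Junb, Jund, Fos, Fosb, Fosl2, Batf and Maff. These shares also count genes without a promoter peak in any list, which cannot be ordered, whereas every member had a peak. In counts, 7693 and 1138 genes had these orders, out of 11403 with a promoter peak in any list. The median difference of replicate 1 minus replicate 2 was 32.3 percentile points over the members and 24.7 over the 11403 protein-coding genes with a promoter peak in any list. What the number marks is not given in the labels, and its part in these values was not tested.

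The loci, taken as the gene with 20000 bp to each side, held many more regions than the promoters. CDK6-WT replicates 1 and 2 had 78 and 45 peaks in the 10 loci, and CDK6-K43M replicates 1 and 2 had 84 and 43. Merging gave 89 regions, of which 18 lay in a member promoter, 14 in the promoter of another protein-coding gene and 57 elsewhere. The members had a median of 1.59 regions per 10 kb of locus, compared with 0.371 for all protein-coding genes and 0.683 for those with a promoter peak. With a flank of fixed size, short genes have shorter loci, and the comparison was not matched for gene length. Junb was densest, with 16 regions or 3.62 per 10 kb, which placed it at the 99.7 percentile of protein-coding genes. Fosb followed with 15 regions (3.17 per 10 kb), Fos with 11 (2.54), Jund with 9 (2.16) and Jun with 8 (1.85). Fosl1, Fosl2, Batf, Atf3 and Maff had 5 to 7 regions each, from 0.798 per 10 kb at Atf3 to 1.33 at Maff. The Junb regions include 5 in the promoters of neighbouring genes, among them Hook2 and Rnaseh2a.

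**Figure D3:**
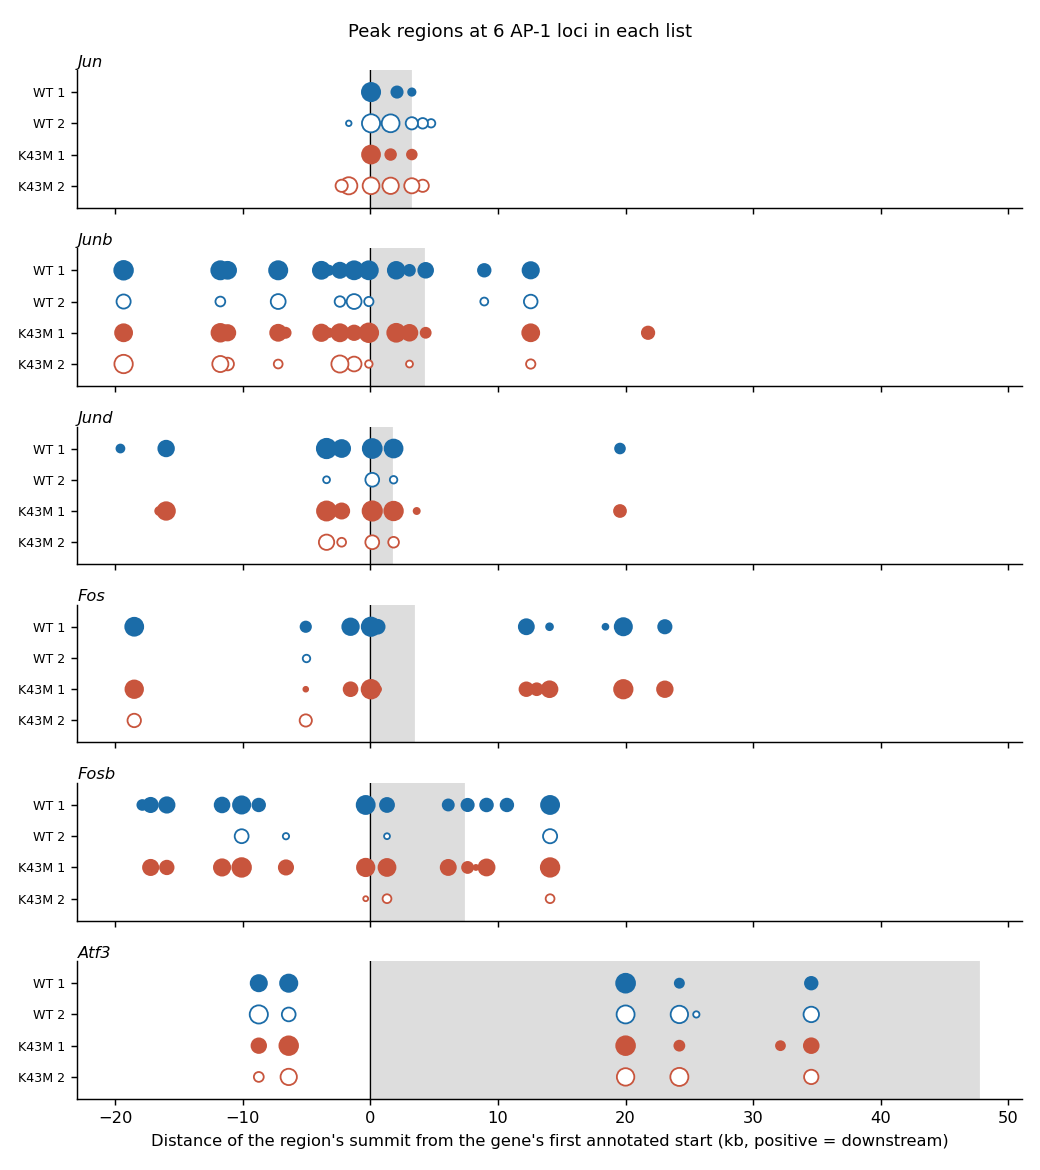
Peak regions at 6 AP-1 loci, 1 row per list, by the distance of the region's summit from the first annotated start of the gene (x axis, kb, positive downstream). Points grow with the percentile of the strongest peak in that list, filled points are replicate 1, open points replicate 2, blue CDK6-WT, red CDK6-K43M, and the grey band is the gene; the Fos rows of replicate 2 hold 1 and 2 regions and those of replicate 1 hold 10 each.

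By the lists that held them, 37 of the 89 regions (41.6%) were bound by both variants, close to the 41.8% of regions at all protein-coding loci. A further 24 (27.0%) were in both replicate 1 lists only, against 13.5% at all loci, and 2 (2.25%) in both replicate 2 lists only, against 9.96%. Both of the latter were at Jun, one with its summit at -1701 bp from the start and the other past the 3′ end. Another 24 regions were in 1 list, against 31.8% of regions at all loci. Among the 18 regions in member promoters, 9 were bound by both variants (59.7% of regions in all protein-coding promoters), 4 were in both replicate 1 lists only (14.4%), 1 in both replicate 2 lists only (4.28%) and 4 in 1 list (19.4%). Of the 24 regions of replicate 1, 7 were at Fos, 6 at Fosb, 4 at Junb, 2 each at Jund, Fosl2 and Maff, and 1 at Fosl1. Fos had 10 locus peaks in CDK6-WT replicate 1 and 10 in CDK6-K43M replicate 1, but 1 in CDK6-WT replicate 2 and 2 in CDK6-K43M replicate 2. Jun showed the opposite order, with 4 peaks in each replicate 1 list and 9 in each replicate 2 list. Its promoter peaks were single and broad in replicate 1 (1703 and 2403 bp in CDK6-WT and CDK6-K43M), and 3 in number in each replicate 2 list.

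**Figure D4:**
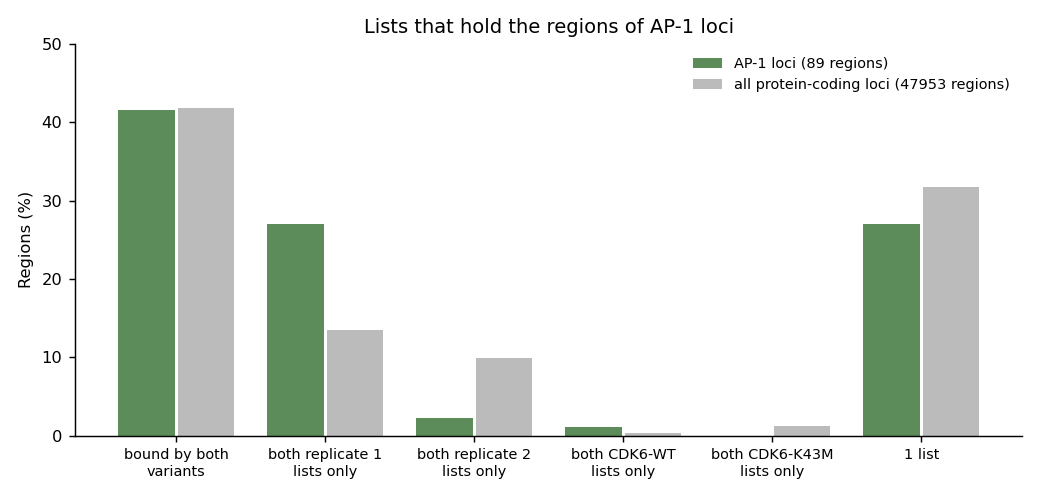
Share of regions (y axis, percent, bars from 0) by the lists that hold them, for the 89 regions of the AP-1 loci and the 47953 regions in or near all protein-coding genes. The bars for regions bound by both variants are 41.6% and 41.8%, those for both replicate 1 lists only are 27.0% and 13.5%; regions in 1 list of each variant with unlike numbers are not drawn.

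Among the regions in all 4 lists outside the promoter of any gene, the 6 with the highest mean percentile are described. The strongest was in an intron of Atf3, at chr1:191197913-191198317, with percentiles 93.6 and 84.6 in CDK6-WT replicates 1 and 2 and 92.5 and 79.4 in CDK6-K43M replicates 1 and 2, and with 43, 32, 48 and 25 reads. It was stronger than the Atf3 promoter peak in every list. The next had its summit at -3443 bp from the Jund start (chr8:70695165-70696216), at 99.7 and 7.61 in CDK6-WT replicates 1 and 2 and 96.2 and 60.1 in CDK6-K43M replicates 1 and 2. In CDK6-WT replicate 1 this peak had 63 reads, against 15 in CDK6-WT replicate 2. The other 4 of the 6 lay at -7070 bp from the Batf start (percentiles 47.3 to 78.6), 14080 bp from the Fosb start (16.2 to 90.3), -2395 bp from the Junb start (25.5 to 75.9) and -8755 bp from the Atf3 start (21.7 to 86.7).

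Between the variants, 8 of the 10 members had overlapping promoter percentiles, and Jun and Atf3 did not. With 2 libraries against 2 the exact two-sided permutation test cannot give a p below 0.33, and the p-values of the 10 members ran from 0.33 to 1. The number of members with a promoter peak was 7.5 ± 2.12 (SD, n = 2) for CDK6-WT and 9 ± 1.41 (SD, n = 2) for CDK6-K43M, a difference of 1.5 (exact permutation p = 0.667), or 1 within replicate 1 and 2 within replicate 2. The number of peaks in the loci was 61.5 ± 23.3 (SD, n = 2) and 63.5 ± 29.0 (SD, n = 2), a difference of 2 (exact permutation p = 1), or 6 within replicate 1 and -2 within replicate 2.

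Of single members, only Atf3 was higher in both CDK6-K43M lists than in both CDK6-WT lists, by 9.22 percentile points (16.6 within replicate 1 and 1.86 within replicate 2). The Atf3 peaks compared did not share a summit. Counted from the nearest start it lay at -110 and 178 bp in CDK6-WT replicates 1 and 2, and at -144 and 588 bp in CDK6-K43M replicates 1 and 2. The share of all protein-coding genes in that order was 2.95%, or 649 genes, where 11403 had a promoter peak in any list. Only Jun was lower in both CDK6-K43M lists, by a difference of -6.26 (-2.92 within replicate 1 and -9.61 within replicate 2), against 1.49% of all genes, or 328. Each reached the smallest p of the exact permutation test, 0.33. The Atf3 groups overlapped with a promoter of 500 bp to each side (difference 3.76, exact permutation p = 1) and at a minimum −log10 q of 10 (27.6, p = 1), and Atf3 had no promoter peak in the top 10000 of any list. The Jun groups overlapped with the 500 bp promoter (-1.82, exact permutation p = 0.667) and when peaks were ranked by fold enrichment (-1.30, p = 0.667). Fosl2 was 8.51 and 16.2 points higher in CDK6-K43M within replicates 1 and 2, and Jund 4.41 and 0.441 points higher, with overlapping groups. Fos differed by 2.57 points within replicate 1 and had no promoter peak in replicate 2, and Fosl1 differed by 47.7 points within replicate 1 through its single peak. Junb, Fosb, Batf and Maff differed in opposite directions within the 2 numbers. Batf differed by -5.84 points within replicate 1 and by 32.1 within replicate 2, and Maff by -8.29 and 33.0. The median difference was 6.09 points over the members and 1.06 over protein-coding genes with a promoter peak in any list. Averaged over both numbers, 8 of the 10 members were higher in CDK6-K43M, but without CDK6-WT replicate 2 or without CDK6-K43M replicate 1 only 3 were. No such count was made over all protein-coding genes. The median over genes with a promoter peak was also positive, so most of those genes were higher too. Fosl1 counted through its single peak.

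**Figure D5:**
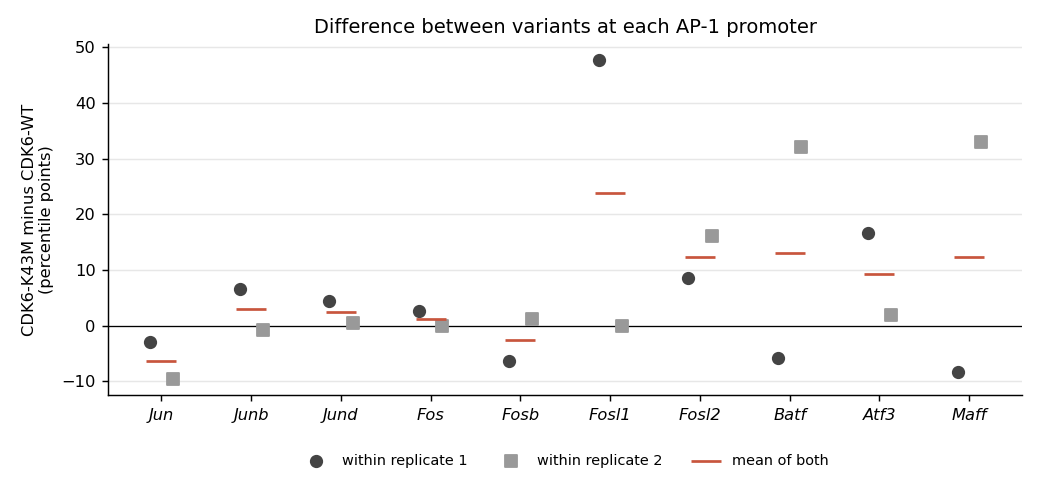
Difference of the promoter percentile between CDK6-K43M and CDK6-WT (y axis, percentile points) for each AP-1 gene, within replicate 1 (dark circles), within replicate 2 (grey squares) and averaged (red bars). The differences within the numbers lie on opposite sides of 0 for Junb, Fosb, Batf and Maff, and Jun is the only gene below 0 in both.

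A region counted as unique where it was in the lists of 1 variant, both of them, and in none of the other. At the 10 loci 1 region was unique to CDK6-WT (0.344% of regions at all protein-coding loci) and 0 were unique to CDK6-K43M (1.28%). The region, chr8:84969457-84970116, is 6745 bp past the nearest Junb start and lies in the promoters of Prdx2 and Rnaseh2a, and its percentiles were 38.7 and 12.0. Under a minimum −log10 q of 5 the count of unique regions was 0, and under a minimum of 10 and in the top 10000 peaks it was 1.

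The genes around the AP-1 factors in the pathway had promoter regions bound by both variants in most cases. Of 22 bZIP relatives and dimer partners, 17 had a promoter region bound by both (77.3%, against 41.3% of protein-coding genes). The strongest were Atf6, an endoplasmic reticulum stress sensor, at 74.7 to 98.3, then Nfe2 and Atf5. Maf had no promoter peak in any list, and Mafg, a small MAF like Maff, had peaks in both replicate 1 lists only (81.9 and 73.3). Of 17 genes of the MAP kinase arm upstream of AP-1, 16 were bound by both (94.1%), led by Mef2c, Mapk14 (p38α) and Elk4. The exception was Elk1, with a peak at percentile 10.1 in CDK6-K43M replicate 1 only. Srf, which binds the serum response element, was at 69.6 and 19.5 in CDK6-WT replicates 1 and 2 and 64.5 and 52.0 in CDK6-K43M replicates 1 and 2.

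Of 13 other immediate-early genes, 10 were bound by both (76.9%). The zinc finger factor Egr1 had percentiles of 96.4 and 86.5 in CDK6-WT replicates 1 and 2 and 96.4 and 86.7 in CDK6-K43M replicates 1 and 2, so that it was high in the lists in which Fos had no peak. Zfp36, which encodes an mRNA decay factor, and Dusp2, a MAP kinase phosphatase, followed. Promoter regions unique to CDK6-K43M were found at Dusp2 and Btg2, where 0.713% of protein-coding genes had one. Nr4a1 shared the order of Fos, with peaks at 30.0 and 12.5 in the replicate 1 lists alone.

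The AP-1 site was searched within 100 bp of the summits of the 22975 regions that both variants bound. The form searched, TGANTCA, allows any base at the centre, so the shares also count matches other than TGA(C/G)TCA. It was found at 7.13% of them (95% Wilson interval 6.80 to 7.47), compared with 5.54% of windows of the same size 1000 bp to each side, a ratio of 1.29. In promoters the share was 4.17% against 5.19% beside them, and outside promoters 9.85% against 5.85%. The cAMP response element, which JUN-ATF dimers can bind, was at 1.45% of all summits against 0.155% beside them. In promoters it was at 2.57% against 0.150%, and outside promoters at 0.426% against 0.159%. In the same search over all summits, ETS motifs (CCGGAAGT) were at 3.86% against 0.259%, SP1 matches at 6.02% against 1.25% and RUNX motifs (TGTGGT) at 20.7% against 14.6%. NFY boxes were at 19.7% against 23.0%, and serum response elements at 0.723% against 0.984%. The Wilson interval covers counting error only, and the windows differ in base composition.

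At the AP-1 loci themselves, 9 of the 89 regions had an AP-1 site within 100 bp of the summit. No share over all regions was computed to set beside this. None of the 18 regions in member promoters had one, where the share over all promoter regions bound by both was 4.17%. Of the 37 regions bound by both variants 2 held one (5.41%, against 7.13% of all regions bound by both), and both were at Atf3. Counts this small do not set the AP-1 loci apart. They are shown because they are the only shared regions of the 10 loci where the factors' own site lay at the summit, with the AP-1 site as the first run of capitals and an NFY box (intron) or an SP1 match read on the other strand (upstream) as the second.
Atf3 intron (chr1:191193724-191193924): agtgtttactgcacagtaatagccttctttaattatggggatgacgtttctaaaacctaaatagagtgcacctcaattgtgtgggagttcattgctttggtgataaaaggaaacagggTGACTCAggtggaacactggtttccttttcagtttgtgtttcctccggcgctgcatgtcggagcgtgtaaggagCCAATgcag
Atf3 upstream (chr1:191224348-191224548): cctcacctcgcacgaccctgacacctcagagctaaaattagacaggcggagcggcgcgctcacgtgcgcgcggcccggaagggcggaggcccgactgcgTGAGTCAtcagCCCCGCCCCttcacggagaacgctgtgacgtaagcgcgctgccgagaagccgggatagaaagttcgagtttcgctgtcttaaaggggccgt
The intronic region was weak in replicate 1 and strong in replicate 2, at percentiles 17.8 and 78.9 in CDK6-WT replicates 1 and 2 and 22.4 and 85.3 in CDK6-K43M replicates 1 and 2. The upstream region, at -6409 bp from the first Atf3 start and in the promoter of the noncoding gene D730003I15Rik, was at 77.6, 47.3, 91.3 and 68.9 in the same order.

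The cell type named in the labels was checked at 8 pre-B cell genes. Of these, 7 had a promoter region bound by both, against 41.3% of all protein-coding genes. Igll1, Vpreb1 and Pax5 had mean percentiles of 96.1, 95.9 and 91.0. Rag1 had peaks in the replicate 2 lists only, at 98.3 and 92.3, as did 1.28% of protein-coding genes. Of 9 marker genes of other blood cells, 7 had no promoter peak in any list, and the others were Lck, with a region bound by both and another unique to CDK6-K43M, and Lyz2. Of all 22028 protein-coding genes, 11403 had a promoter peak in some list, so that lacking one is common. A peak of CDK6 is not a measure of expression, so that this check bears on binding alone.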

How the data were processed

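ChIP-seq against the HA tag was analysed in 2 CDK6-WT and 2 CDK6-K43M libraries, grouped by the variant and number in their labels. The 2 input libraries were not analysed here. Per the labels and the study's methods, the authors checked reads with FastQC 0.11.5, trimmed them with Trimmomatic 0.36, aligned them to mm10 with BWA 0.7.15, removed blacklisted regions with bedtools and multimapping or low-quality reads with SAMtools 1.3.1, and called peaks per library with MACS2 2.1.0 at default settings. The deposited lists give each peak's position, a score (10 times the −log10 q), a fold enrichment as a ratio over local background, the −log10 p-value and q-value, and the summit offset. They start at a −log10 q of 1.31 to 1.34.

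Whole reads at each summit were solved from fold and −log10 p (tolerance 0.001), for 100% of peaks in each list. This gives depth at the peaks but no library total. Peaks overlapping by at least 1 bp were merged. Genes and starts came from GENCODE M21, whereas the authors used M13. Percentiles were compared by exact two-sided permutation over 6 assignments of the libraries, and shares carry Wilson intervals. The merging and read recovery were tested on simulated data. Python 3.11.15, numpy 2.4.6, pandas 2.3.3, scipy 1.17.1, pysam 0.24.0 and matplotlib 3.10.9 were used.

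The members and gene lists were chosen with earlier results of these data known. Named in the text were all members, genes of the related lists without any peak or with a variant-unique promoter region, the 3 highest of each list, the 3 genes most like Jun, and up to 6 shared regions away from promoters. Elk1, Mafg, Srf, Nr4a1, Rag1, Lyz2 and the neighbours of a member were added after their values were seen, and a withheld item is not reported here. The alternatives were stricter q minimums, the top 10000 peaks of each list, other promoter, locus and motif windows, other merging, ranking by fold, a replicate block and leaving out each library.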

Additional observations from a re-analysis of the deposited data

How the results depend on the processing

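On leaving out the libraries in turn, the difference in locus peaks ranged from -18.5 to 22.5, and the number of members higher in CDK6-K43M from 3 to 9. The percentile difference ranged from -15.1 to 21.0 for Junb, from -23.1 to 27.9 for Jund, from -44.4 to 46.9 for Fos, from -45.1 to 40.1 for Fosb, from -21.4 to 47.7 for Batf and from -14.0 to 38.7 for Maff. Those of Jun, Fosl2 and Atf3 kept their sign, and that of Fosl1 ranged from 0 to 47.7. Fosl2 moved from 12.4 to 43.7 at a minimum −log10 q of 10 and in the top 10000 peaks. Members bound by both numbered 6 to 9, and variant-unique regions 8 to 17, since 1 list then stands for a variant. Other blood cell markers bound by both numbered 1 to 2; the alternatives for the related lists were chosen after seeing the data.

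At a −log10 q of at least 5 0 variant-unique regions were found (1 at 10 and in the top 10000) and 1 marker of other blood cells was bound by both. At 10, and with the top 10000 peaks of each list, 2 members each were bound by both (17.1% and 12.7% of protein-coding genes), and 5 and 4 were higher in CDK6-K43M. There the Batf difference was -2.92 and -36.6, that of Maff at 10 was -26.3, and that of locus peaks in the top 10000 was -2. The AP-1 share was 7.48% at 10 and 3.83% in windows of 50 bp (flanks 2.70%). A promoter of 500 bp to each side gave -5.93 for Junb and -4.50 for Fosl2, ranking by fold gave -1.06 for Junb and -2.42 for Jund, and summits extended by 100 bp gave 4 variant-unique regions. The causes were not tested.

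Same-numbered libraries deviated together (Pearson r = 0.663 between variants over 11403 genes), but with 2 pairs and no label the number is not shown to pair them. With a replicate block the differences are those without it (1.5 members, 2 locus peaks), and the permutation test cannot give a p below 0.5. The lists hold no library totals, and the part of depth in weak peaks was not tested. The lowest recovered local background was 1.54 and 1.73 reads in CDK6-WT replicates 1 and 2. In CDK6-K43M replicates 1 and 2 it was 1.90 and 1.57 reads.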
